A study of Drosophila melanogaster with 6 samples.

Results

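The Turandot genes of Drosophila melanogaster were followed across 6 RNA-seq libraries from whole pharate adult males. The members were the 7 genes listed under the symbols TotA, TotB, TotC, TotF, TotM, TotX and TotZ, out of 15115 genes listed. They were chosen by symbol and selected on the measured RPKM of TotA, which was known to be higher in the double mutant than in wild type, so every value of the family in the comparisons that use the double mutant libraries is a description without a test. Of the 7 genes, 6 had a value above 0 in at least 1 library and 4 (TotA, TotB, TotM and TotZ) had a mean of at least 1 RPKM over the 6 libraries. RPKM is the read count of a gene divided by its length in kilobases and by the reads counted on all genes of the library. The filter left 11304 genes in all, and these were the genes tested. TotM passed it with a mean of 1.13 RPKM and TotX missed it with 0.837 RPKM.

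Turandot genes encode small secreted proteins that the fat body, the insect counterpart of liver and adipose tissue, releases into the haemolymph after heat, injury, infection or other stress. In flies TotA is a widely used readout of the JAK/STAT pathway, in which Unpaired (Upd) cytokines bind the receptor Domeless, the kinase Hopscotch is activated and the transcription factor Stat92E enters the nucleus. The stress kinase Mekk1 is also known to be needed for TotA induction after injury.

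The males were of 3 genotypes with 2 libraries each. Double H3.3 K27R males (yw, H3.3B K27R; H3.3A K27R/H3.3A K27R) carried arginine in place of lysine 27 in both genes for histone H3.3, and H3.3B K27R males (yw, H3.3B K27R) carried it in the X-linked gene H3.3B only. Wild type males were yw, and yw is part of the genotype given for every group. The paper states that the H3.3B and H3.3A alleles were made in different injected strains. The part of other differences in strain background was not tested. H3.3 is the histone H3 variant that is placed into chromatin outside of DNA replication, and its lysine 27 can be acetylated or methylated, which arginine cannot. All males were collected between 96 and 108 hours after puparium formation, and several males were homogenized together for a library. The libraries are labelled as replicates of a genotype, with technical runs merged in H3.3B K27R replicate 1, and nothing else says how they were separated, so the p-values measure the spread between these libraries, which may be technical. The mutations change single codons and were present in every cell, so RNA levels of the targeted genes do not check the labels. The paper reports that the genotypes were borne out by the sequence of reads over the H3.3 genes, a check that RPKM values do not allow.

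The libraries were shallow, with 1535941 to 2118264 reads on genes, and the deposited values corresponded to whole reads in all of the 73342 values above 0. For the Turandot genes, 3 reads were worth 2.35 to 3.86 RPKM depending on the gene and the library. Genes that mark fat body were read in every library (7 of 7 markers), as were those of muscle and neurons, whereas the female yolk protein genes summed to at most 2.92 RPKM in any library, with Yp1 at 0 in all. In libraries of whole animals, fewer cells of a type and less RNA per cell cannot be told apart.

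TotA, the best known stress-induced member, was the Turandot gene with the most RNA in double H3.3 K27R males and only a moderately expressed gene in the other genotypes. It was read at 84.6 and 90.0 RPKM in double H3.3 K27R males (82 and 80 reads), at 7.21 and 9.70 RPKM in H3.3B K27R males (8 and 9 reads) and at 8.68 and 11.4 RPKM in wild type males (8 and 14 reads). Both double mutant libraries lay above the other 4, which overlapped with each other. Over all genes, 22.4% were higher in both double H3.3 K27R than in both wild type libraries, and 25.5% than in both H3.3B K27R libraries. Among all genes listed, TotA stood at percentiles 94.6 and 94.8 in double H3.3 K27R males, 57.6 and 63.9 in H3.3B K27R males, against 60.9 and 66.5 in wild type males. The fitted difference between double H3.3 K27R and wild type males was 3.01 on the scale of log2(RPKM + 1) (SE 0.20), or 8.05-fold. From the reads alone the ratio was 8.51, with a 95% interval of 5.43 to 14.0 that covers counting error only. Of the 11304 genes tested, 12 had a larger increase on this scale. Against H3.3B K27R males the difference was 3.23 (SE 0.20), or 9.41-fold.

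TotA did not differ detectably between H3.3B K27R and wild type males. The difference was -0.23 (SE 0.20) on the log2 scale, with an adjusted p of 0.688 in limma's moderated test and a read ratio of 0.815 (95% interval 0.406 to 1.61). The interval is wide because the 4 libraries together held 39 reads of this gene. The wild type libraries are also those of the comparison by which TotA was chosen.

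**Figure D1:**
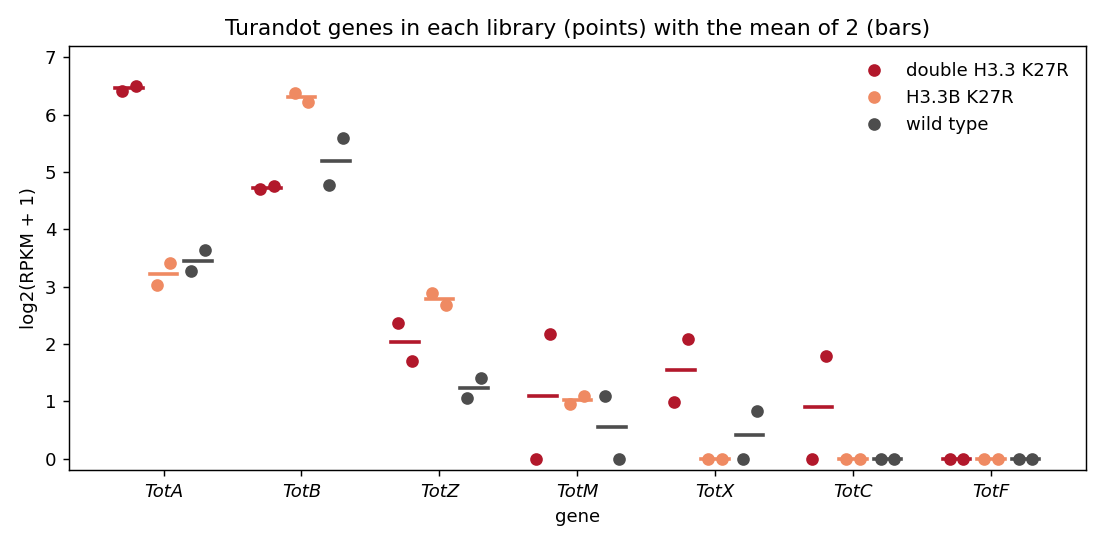
Level of each Turandot gene as log2(RPKM + 1) in each library (points) and the mean of the 2 libraries of a genotype (bars), for double H3.3 K27R, H3.3B K27R and wild type males. TotA is high in both double H3.3 K27R libraries (84.6 and 90.0 RPKM), TotB is highest in both H3.3B K27R libraries (82.4 and 73.5 RPKM), and TotF is at 0 throughout.

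TotB, the next expressed gene of the cluster that holds TotA, had another order of genotypes. It was read at 25.0 and 26.0 RPKM in double H3.3 K27R males (22 and 21 reads), at 82.4 and 73.5 RPKM in H3.3B K27R males (83 and 62 reads) and at 26.3 and 47.6 RPKM in wild type males (22 and 53 reads). Both H3.3B K27R libraries were the highest and the wild type libraries were the most unequal. TotB was thus the leading Turandot gene in H3.3B K27R and wild type males, at percentiles 94.7 and 94.1 of all genes listed in H3.3B K27R males, against 83.6 and 90.5 in wild type males, and stood at 82.7 and 83.4 in double H3.3 K27R males.

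Between H3.3B K27R and wild type males the fitted difference of TotB was 1.11 on the log2 scale (SE 0.26), or 2.17-fold, and the read ratio was 2.04 (95% interval 1.53 to 2.73). Both H3.3B K27R libraries were above both wild type libraries, which held for 19.6% of all genes tested. The unadjusted p was 0.00446 and the adjusted p was 0.244 by limma, so the difference did not pass correction over all genes. Over the alternatives tried, the adjusted p of TotB lay between 0.137 and 0.632. The size of the difference rested on the wild type libraries, being 0.70 without replicate 1 and 1.53 without replicate 2.

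TotB was also low in double H3.3 K27R males when these were set against H3.3B K27R males, with a log2 difference of -1.57 (SE 0.26) and a read ratio of 0.325 (95% interval 0.226 to 0.460). Both double H3.3 K27R libraries were below both H3.3B K27R libraries, as for 19.2% of all genes tested, whereas for TotA both were above them, as for 25.5%. Against wild type the difference was -0.46 (SE 0.26) and the read ratio 0.663 (95% interval 0.445 to 0.977). Both double H3.3 K27R libraries were below both wild type libraries, as for 22.2% of all genes, but by only 0.015 on the log2 scale at the nearest pair, and without wild type replicate 2 the difference was -0.04. Without wild type replicate 1 it was -0.87.

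TotZ, a further member of the cluster, was read at a low level in all libraries. It had 4.17 and 2.27 RPKM in double H3.3 K27R males (4 and 2 reads), 6.38 and 5.44 RPKM in H3.3B K27R males (7 and 5 reads) and 1.10 and 1.65 RPKM in wild type males (1 and 2 reads). On 1 to 7 reads a library the 3 genotypes did not overlap, with H3.3B K27R males highest and wild type males lowest. Over all genes, 19.6% were higher in both H3.3B K27R than in both wild type libraries, 22.4% in both double H3.3 K27R than in both wild type libraries, and 19.2% lower in both double H3.3 K27R than in both H3.3B K27R libraries. The difference between H3.3B K27R and wild type males was 1.55 on the log2 scale (SE 0.33, unadjusted p = 0.00292, adjusted p = 0.218 by limma), and the read ratio was 4.22 with a 95% interval of 1.14 to 23.3. For double H3.3 K27R against wild type males the difference was 0.80 (SE 0.33) and the read ratio 2.31 (95% interval 0.494 to 14.3). Without double H3.3 K27R replicate 1, this difference was 0.47. Double H3.3 K27R males were 0.75 lower than H3.3B K27R males (log2 difference -0.75, SE 0.33), with a read ratio of 0.548 (95% interval 0.169 to 1.58), so that at this depth no order of these genotypes was detectable for TotZ.

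TotM, which lies apart from the cluster, was read at 0 and 3.54 RPKM in double H3.3 K27R males, 0.946 and 1.13 RPKM in H3.3B K27R males and 1.14 and 0 RPKM in wild type males. These values came from 3 reads in double H3.3 K27R, 2 in H3.3B K27R and 1 in wild type males, and the genotypes overlapped. The log2 difference between H3.3B K27R and wild type males was 0.48 (SE 0.78, adjusted p = 0.846 by limma), and it turned to -0.07 without wild type replicate 2. In double H3.3 K27R males it was 0.54 (SE 0.78) against wild type, with -0.55 without double H3.3 K27R replicate 2 and 1.63 without replicate 1.

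The remaining members were near or below the limit of the depth. TotX had 1 and 3 reads in double H3.3 K27R males (0.993 and 3.24 RPKM), 0 reads in both H3.3B K27R libraries and 0 and 1 reads in wild type males (0 and 0.784 RPKM). TotC had 2 reads (2.46 RPKM) in double H3.3 K27R replicate 2 and 0 in the other 5 libraries. TotF had 0 reads in every library, and a count of 0 allows a level of up to 2.80 to 3.86 RPKM for this gene. For TotX the depth-scaled read ratio of double H3.3 K27R to wild type males was 4.62, with a 95% interval of 0.458 to 228, so no difference was detectable at this depth. No fold is given for TotC and TotF. The gene listed as Victoria, called TotE in the current annotation and outside the 7 symbols, was read at 1.14 and 1.25 RPKM in double H3.3 K27R males, 2.0 and 1.20 RPKM in H3.3B K27R males and 1.20 and 0 RPKM in wild type males, from at most 2 reads in a library.

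The summed RNA of the family was carried mainly by TotA in double H3.3 K27R males, the gene the family was chosen by, and by TotB in the others. Summed over the 7 genes it was 115 and 127 RPKM in double H3.3 K27R males, 96.9 and 89.8 RPKM in H3.3B K27R males and 37.2 and 61.4 RPKM in wild type males. Every mutant library was above both wild type libraries, a description without a test. TotA and TotB together made up 91.0% to 96.0% of the sum in each library.

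What differed was the share of TotA. Of the reads of TotA and TotB, 78.8% and 79.2% came from TotA in double H3.3 K27R males (95% exact binomial intervals 69.7% to 86.2% and 70.0% to 86.6%). In H3.3B K27R males the shares were 8.79% and 12.7% (3.87% to 16.6% and 5.96% to 22.7%), and in wild type males 26.7% and 20.9% (12.3% to 45.9% and 11.9% to 32.6%). The ratio of TotA to TotB in RPKM was 3.39 and 3.46 in double H3.3 K27R males, 0.0876 and 0.132 in H3.3B K27R males, against 0.330 and 0.240 in wild type males. The ratio does not depend on library depth, and the double mutant libraries were the only ones in which TotA exceeded TotB.

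**Figure D2:**
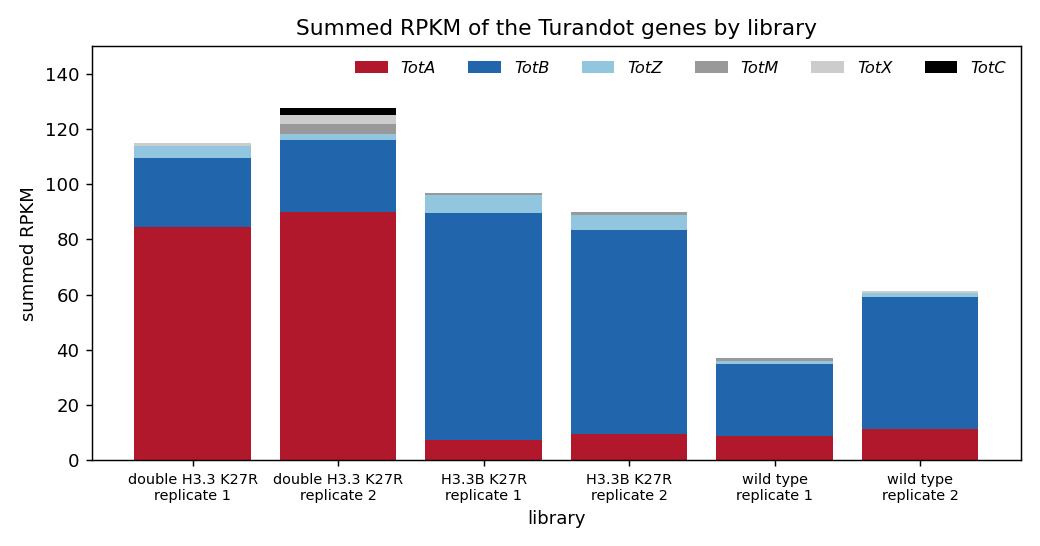
Summed RPKM of the Turandot genes in each of the 6 libraries, stacked by member, with double H3.3 K27R libraries at left, H3.3B K27R in the middle and wild type at right. The sum is 115 and 127 RPKM in double H3.3 K27R, 96.9 and 89.8 RPKM in H3.3B K27R, against 37.2 and 61.4 RPKM in wild type males, with TotA the main part in double H3.3 K27R and TotB in the others.

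The thresholds of an adjusted p below 0.01 and a log2 difference above 1 in size called 0.133% of genes between double H3.3 K27R and wild type males, 0.00885% between H3.3B K27R and wild type males and 0.0619% between double H3.3 K27R and H3.3B K27R males. None of the 4 tested Turandot genes was called between H3.3B K27R and wild type males by limma, by limma with voom weights on the recovered reads or at an adjusted p below 0.05, and TotB and TotZ had an unadjusted p below 0.05 and were higher, as did 4.22% of all genes. The median log2 difference of the 4 genes was 0.80 in H3.3B K27R against wild type males, and -0.02 over all genes tested. For double H3.3 K27R against wild type males the 4 differences ran between -0.46 and 3.01, with a median of 0.67 and a median over all genes of -0.000493. These comparisons share the wild type libraries, and the values are set side by side only.

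**Figure D3:**
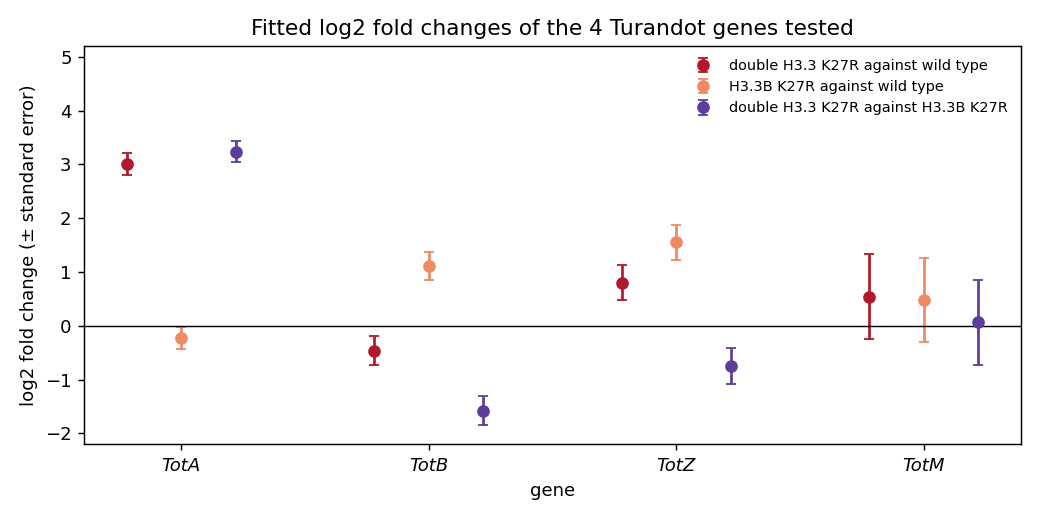
Fitted log2 difference of TotA, TotB, TotZ and TotM on the scale of log2(RPKM + 1) for double H3.3 K27R against wild type, H3.3B K27R against wild type and double H3.3 K27R against H3.3B K27R males. Points are fitted values and bars are 1 standard error, from 2 libraries a genotype. TotA stands at 3.01 and 3.23 in the comparisons with double H3.3 K27R males and at -0.23 in H3.3B K27R against wild type males.

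By the BDGP6 annotation, in which genes were looked up by FlyBase identifier, TotA (FBgn0028396), TotC (FBgn0044812), TotB (FBgn0038838) and TotZ (FBgn0044809) follow each other on the plus strand of chromosome arm 3R with no other gene of the table between them. TotX (FBgn0044810) lies further along 3R on the minus strand, inside the span of CG5621. TotM (FBgn0031701) and TotF (FBgn0044811) are on 2L, with TotM directly beside fusl on the opposite strand and TotF inside the span of sick. The annotated exon lengths were equal to those recovered from the RPKM values for TotA, TotB, TotM, TotX and TotZ (526 to 602 bases), and the length of TotC was taken from the annotation. Positions are not given because the reads were aligned to dm3. Whether reads that match several members, or genes that overlap on opposite strands, were counted by match or by strand is not given in the sources used here, so the split of reads among the Turandot genes, TotC included, and the low counts of TotX and of TotF are uncertain in this respect.

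None of the tested genes beside the family had a difference as large as that of TotA in double H3.3 K27R males. Of 16 genes next to or overlapping the Turandot genes, 10 were tested and none had an adjusted p below 0.05 in any of the 3 comparisons by limma. At that threshold 0.832% of all genes passed in double H3.3 K27R against wild type, 0.0619% in H3.3B K27R against wild type and 0.31% in double H3.3 K27R against H3.3B K27R males, so a count of 0 in 10 does not set the neighbours apart. Their log2 differences between double H3.3 K27R and wild type males ran between -0.98 and 0.36 with a median of -0.32 (lowest adjusted p = 0.286). The lowest value, that of CG14022 beside TotM, was larger in size than those of TotB, TotZ and TotM. The differences between H3.3B K27R and wild type males ran between -0.68 and 0.26 with a median of -0.06 (lowest adjusted p = 0.592). On the near side of TotA, CG3822, a glutamate receptor subunit, was at 1.66 and 1.99 RPKM in double H3.3 K27R males, 2.60 and 2.77 RPKM in H3.3B K27R males and 2.61 and 2.49 RPKM in wild type males. The double mutant libraries were the lowest for this gene, on 10 and 11 reads, and the highest for TotA. The log2 difference of CG3822 from wild type was -0.33 in double H3.3 K27R males (adjusted p = 0.656 by limma). Over all genes, 22.2% were lower in both double H3.3 K27R than in both wild type libraries, and 19.2% than in both H3.3B K27R libraries. On the far side of TotZ, CG10830 was at 14.6 and 14.8 RPKM in double H3.3 K27R males, 13.6 and 19.8 RPKM in H3.3B K27R males and 16.4 and 20.2 RPKM in wild type males. The non-coding CR44048, next to TotZ on the opposite strand, had 4.88 and 1.33 RPKM in double H3.3 K27R males, 2.66 and 3.18 RPKM in H3.3B K27R males and 7.05 and 3.85 RPKM in wild type males. TotC, between TotA and TotB, had 2 reads in all.

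**Figure D4:**
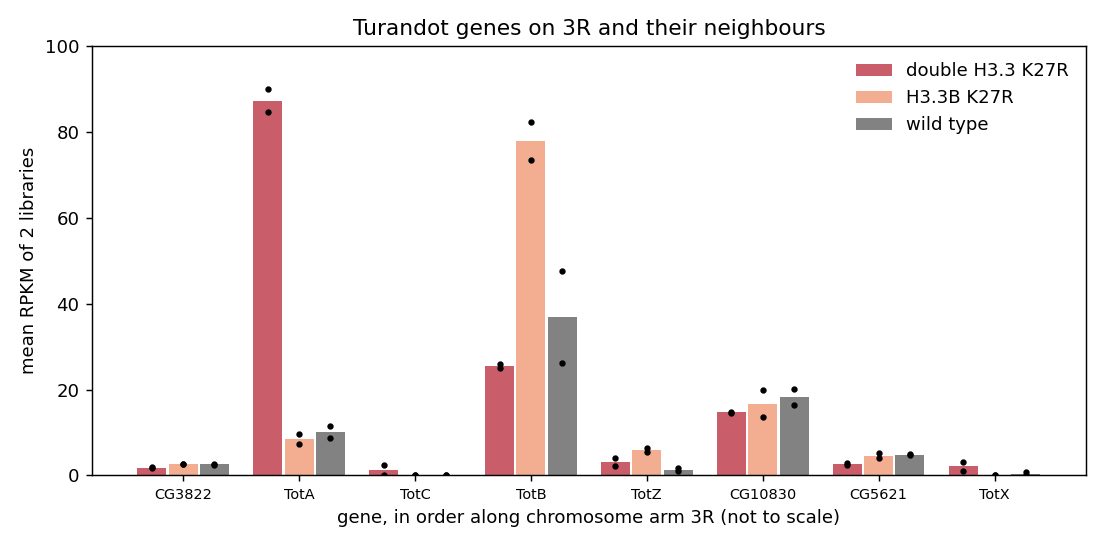
Mean RPKM (bars) and the value of each of the 2 libraries (points) for the 5 Turandot genes on 3R and for CG3822, CG10830 and CG5621 around them, in order along the arm and not to scale. TotA is high in double H3.3 K27R males (84.6 and 90.0 RPKM) and TotB in H3.3B K27R males (82.4 and 73.5 RPKM), while TotC between them reaches at most 2.46 RPKM.

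Genes with a pattern like that of TotA were sought by the root mean square difference between log2(RPKM + 1) values, each centred on its mean over the 6 libraries. The 5 nearest of the genes tested were TwdlD, a Tweedle cuticle protein gene (0.320), CG33458 (0.361), snoRNA:Psi28S-1936 (0.394), CG32368, now annotated as a long non-coding RNA (0.396), and CG11350 (0.479). TwdlD was at 10.5 and 12.8 RPKM in double H3.3 K27R males, 0.541 and 0.647 RPKM in H3.3B K27R males and 1.30 and 1.96 RPKM in wild type males. CG32368 was at 61.2 and 34.9 RPKM in double H3.3 K27R males, 6.37 and 7.61 RPKM in H3.3B K27R males and 4.60 and 5.76 RPKM in wild type males, and was the only one of the 5 read at a level close to that of TotA. snoRNA:Psi28S-1936 and CG11350 were at 0 in every H3.3B K27R and wild type library. CG33458 was at 0 there too, except for 0.696 RPKM in H3.3B K27R replicate 2. These genes passed the filter on low values only through the double H3.3 K27R libraries, so their likeness to TotA is partly set by the filter. No Turandot gene was among the genes near TotA. By the same measure TotM came at place 7243, TotZ at 9215 and TotB at 10975 of the genes ordered by likeness to TotA, and TotB was thus among the least alike. TotZ came at place 975 of the genes ordered by likeness to TotB, a comparison chosen after its values were seen. The likeness is a description over 6 libraries from 3 genotypes.

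Each gene of the pathway known to act on Turandot genes had a read in at least 1 library. Of 17 listed genes of the JAK/STAT pathway (ligands, receptor, kinase, transcription factor, negative regulators and targets), 14 were tested. None had an adjusted p below 0.05 in any of the 3 comparisons by limma. That threshold was passed by 0.832% of all genes in double H3.3 K27R against wild type males and by 0.0619% in H3.3B K27R against wild type males. Between double H3.3 K27R and H3.3B K27R males 0.31% passed it. A count of 0 in 14 therefore does not set these genes apart. The ligand genes were barely read, which limits what can be said of them. The gene listed as os, which encodes Upd1, had 10 and 9 reads in double H3.3 K27R males, 12 and 8 reads in H3.3B K27R males, against 7 and 14 reads in wild type males. For upd2 there were 0 or 1 reads in a library, with 0 in both double H3.3 K27R libraries. For upd3, the cytokine that haemocytes release after injury, there were 1 and 0 reads in double H3.3 K27R males, 1 and 2 reads in H3.3B K27R males and 0 and 2 reads in wild type males.

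The receptor gene dome had a log2 difference of 0.16 between double H3.3 K27R and wild type males (SE 0.16, adjusted p = 0.690 by limma). For hop, which encodes the kinase, it was 0.10 (SE 0.20, adjusted p = 0.873). For Stat92E, which encodes the transcription factor, it was 0.19 (SE 0.13, adjusted p = 0.577). In H3.3B K27R against wild type males these 3 genes were at -0.11, 0.06 and 0.04. Socs36E, a feedback inhibitor and target, was at 15.7 and 15.9 RPKM in double H3.3 K27R males, 15.2 and 14.4 RPKM in H3.3B K27R males and 12.8 and 12.8 RPKM in wild type males. Its log2 difference from wild type was 0.28 in double H3.3 K27R males (adjusted p = 0.439 by limma) and 0.19 in H3.3B K27R males (adjusted p = 0.637).

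The tested targets of the pathway, Socs36E and dome included, were higher in the double mutant than in the other genotypes without passing the test by limma. Tep1, a listed target that was not tested, overlapped between double H3.3 K27R (1 and 2 reads) and wild type males (2 and 5 reads). All 5 tested targets were higher in both double H3.3 K27R libraries than in both wild type libraries, as were 22.4% of all genes, with a median log2 difference of 0.28. All 5 were also higher than in both H3.3B K27R libraries, as were 25.5% of all genes. For vir-1, a virus-induced target of JAK/STAT, the levels were 226 and 240 RPKM in double H3.3 K27R males, 119 and 133 RPKM in H3.3B K27R males and 169 and 130 RPKM in wild type males. The double mutant libraries were the highest, and H3.3B K27R overlapped with wild type. Its log2 difference between double H3.3 K27R and wild type males was 0.65 (adjusted p = 0.128 by limma, 0.0280 with voom weights), and for Tep2, which encodes a thioester-containing immune protein, it was 0.71 (adjusted p = 0.117 by limma, 0.0261 with voom weights). Both were below the difference of TotA. Between double H3.3 K27R and H3.3B K27R males the difference of vir-1 was 0.88 (adjusted p = 0.0925 by limma, 0.00825 with voom weights). That of Tep2 was 0.46 (adjusted p = 0.303 by limma, 0.155 with voom weights).

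Of the stress kinase genes, all 17 were tested and none had an adjusted p below 0.05 in any comparison by limma. At most 0.832% of all genes passed that threshold in a comparison, so a count of 0 in 17 does not set these genes apart. Between double H3.3 K27R and wild type males their median log2 difference was 0.28. Of the 16 with a mean of at least 1 RPKM in the other 4 libraries, 11 were higher in both double H3.3 K27R libraries, as were 22.4% of all genes. Mekk1 was at 8.60 and 6.35 RPKM in double H3.3 K27R males, 5.53 and 4.75 RPKM in H3.3B K27R males and 4.37 and 4.92 RPKM in wild type males, a log2 difference of 0.58 between double H3.3 K27R and wild type (SE 0.24, adjusted p = 0.335 by limma). Among 17 heat shock genes, 10 were tested, and Hsp23, a small heat shock protein gene, was the only one with an adjusted p below 0.05 between double H3.3 K27R and wild type males. It rose by 1.15 on the log2 scale (adjusted p = 0.0440 by limma, but 0.0514 with centring on the median, 0.113 to 0.219 when any library was left out and 0.00410 with voom weights) with 234 and 297 RPKM in double H3.3 K27R males, 128 and 104 RPKM in H3.3B K27R males and 110 and 126 RPKM in wild type males. At that threshold 0.832% of all genes differed in this comparison. The median of the 10 heat shock genes was 0.00.

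Antimicrobial peptide genes are the other large group of fat body genes induced by infection and injury. They included 2 genes that rose in double H3.3 K27R against wild type males with an adjusted p below 0.05 by limma. Of all genes tested, 0.832% passed that threshold in this comparison. Of 20 listed genes, 16 were tested, and 4 of these passed the filter on low values only through the double H3.3 K27R libraries. Of the other 12, which had a mean of at least 1 RPKM in the other 4 libraries (a split made after the data were seen), 10 were higher in both double H3.3 K27R libraries than in both wild type libraries, as were 22.4% of all genes. The median log2 difference of the 12 was 1.35, and in H3.3B K27R against wild type males it was 0.60. Over all 16 the differences from wild type in double H3.3 K27R males ran between -0.48 and 3.01, and 2 were below 0. The largest was that of Dro (adjusted p = 0.0790 by limma, 0.0170 with voom weights). Dro was at 96.2 and 231 RPKM in double H3.3 K27R males. In H3.3B K27R males it was at 29.6 and 23.9 RPKM, and in wild type males at 10.8 and 28.6 RPKM. For Drsl5 the difference was 1.72 (adjusted p = 0.106 by limma, 0.0356 with voom weights). Metchnikowin (Mtk) rose by 2.93 on the log2 scale in double H3.3 K27R against wild type males (adjusted p = 0.00756 by limma, 0.0168 with voom weights and 0.131 without wild type replicate 1). It had 82.5 and 53.4 RPKM in double H3.3 K27R males, 17.5 and 16.3 RPKM in H3.3B K27R males and 7.03 and 8.81 RPKM in wild type males. Drosomycin (Drs) rose by 1.40 (adjusted p = 0.0436 by limma, but 0.0982 to 0.207 when any library was left out and 0.00456 with voom weights) with 264 and 225 RPKM in double H3.3 K27R males, 72.8 and 54.8 RPKM in H3.3B K27R males and 79.6 and 106 RPKM in wild type males. Mtk and Drs were the only antimicrobial peptide genes with an adjusted p below 0.05 in that comparison by limma. Both were also higher in double H3.3 K27R than in H3.3B K27R males, by 1.91 for Mtk (adjusted p = 0.0430) and 1.93 for Drs (adjusted p = 0.0282), but with any library left out the adjusted p was 0.115 to 0.299 for Mtk and 0.0995 to 0.193 for Drs. Between double H3.3 K27R and H3.3B K27R males, 0.31% of all genes had an adjusted p below 0.05 by limma. No antimicrobial peptide gene passed that threshold between H3.3B K27R and wild type males, as did 0.0619% of all genes. In that comparison 2 were higher and 1 was lower at an unadjusted p below 0.05 by limma (4.22% and 8.14% of all genes). None was called there with voom weights.

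**Figure D5:**
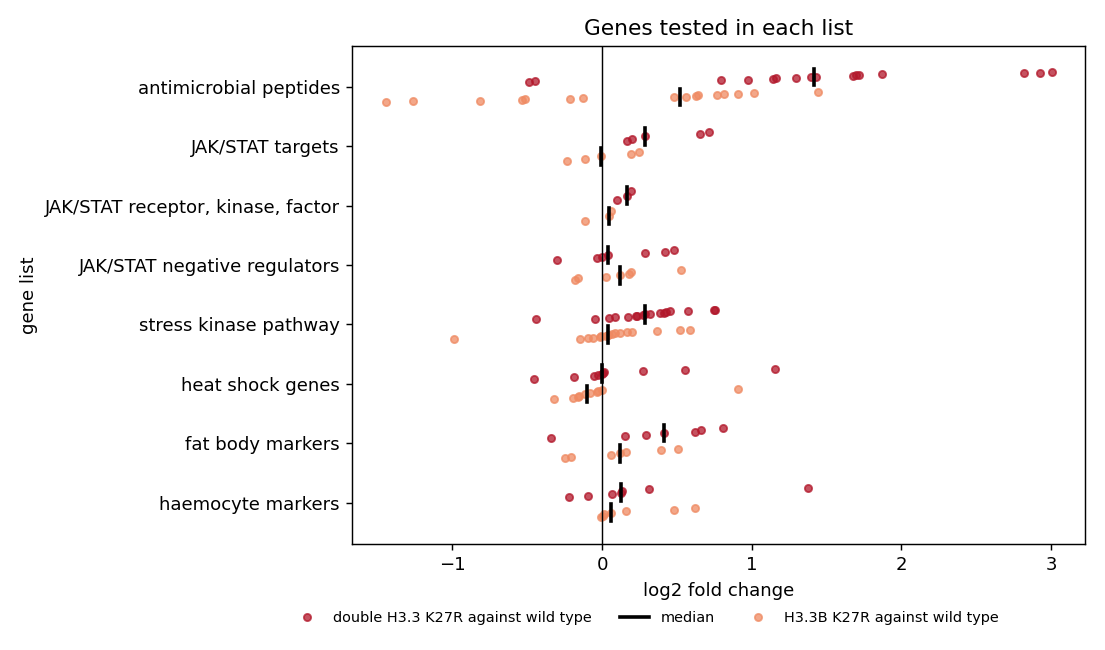
Log2 difference of every tested gene in 8 lists (points) and the median of each list (black lines), for double H3.3 K27R against wild type and H3.3B K27R against wild type males. The median of the antimicrobial peptide genes is 1.41 in double H3.3 K27R males, with 4 genes that passed the filter through these males included, and the other lists have medians between 0.00 and 0.42.

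The summed level of markers of the fat body, where Turandot genes are mainly expressed, was highest in the libraries with the most TotA. No marker passed the test by limma. The 7 markers summed to 4526 to 5464 RPKM in double H3.3 K27R males, 3140 to 3837 RPKM in H3.3B K27R males and 2988 to 3542 RPKM in wild type males. None had an adjusted p below 0.05 in any comparison by limma. At most 0.832% of all genes passed that threshold in a comparison, so a count of 0 in 7 does not set the markers apart. Lsp2 was the largest part of the sum in every library, with 2654 and 2832 RPKM in double H3.3 K27R males. With voom weights its adjusted p was 0.00684 against wild type and 0.0272 against H3.3B K27R males. For apolpp it was 0.0331 in double H3.3 K27R against wild type males with voom weights. For the remaining markers it lay between 0.213 (Apoltp) and 0.718 (Fbp2) in that comparison. Apoltp was lower in both double H3.3 K27R libraries than in both wild type libraries (log2 difference -0.34). Fbp2 and bmm overlapped with wild type. Fbp1 was unequal between the double H3.3 K27R libraries (564 and 1078 RPKM). Of the markers, 4 of 7 were higher and 1 was lower in both double H3.3 K27R libraries than in both wild type libraries (22.4% and 22.2% of all genes), and the median log2 difference was 0.42, against 3.01 for TotA. TotB differed by -0.46 from wild type in the same libraries, and by -0.04 without wild type replicate 2. These values are set side by side only. The 8 haemocyte markers summed to 1021 to 1123 RPKM in double H3.3 K27R males, 1151 to 1159 RPKM in H3.3B K27R males and 973 to 1305 RPKM in wild type males. At least 7 of 8 were above 0 in every genotype. Nplp2 was the largest part of this sum in every library, at 885 to 1211 RPKM. Other members moved in different directions. None of the 7 tested had an adjusted p below 0.05 by limma, as did at most 0.832% of all genes in a comparison. NimC1 differed by 1.38 on the log2 scale between the double mutant (14 and 11 reads) and wild type (2 and 4 reads). It passed the filter on low values only through the double H3.3 K27R libraries, so this difference is partly set by the filter. Pxn differed by -0.84 between the double mutant and H3.3B K27R males (adjusted p = 0.120 by limma, 0.0149 with voom weights). Between H3.3B K27R and wild type males Pxn differed by 0.62. The testis markers summed to 239 to 255 RPKM in double H3.3 K27R males, 234 to 276 RPKM in H3.3B K27R males and 402 to 420 RPKM in wild type males. The part of tissue composition in the levels of the Turandot genes was not tested.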

How the data were processed

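Whole pharate adult males were sequenced in 6 libraries, 2 for each of 3 genotypes, and grouped by their labels. The authors made libraries with the NuGen Ovation kit, aligned reads with STAR 2.5.2b to dm3, in which the replicated histone genes had been reduced to single copies, and counted them with Subread 1.28.1. The submitters' processing notes also name SAMtools 1.3.1. The authors deposited RPKM values for 15115 genes, computed with a script of their own. A table of the authors' own DESeq2 1.18.1 comparisons (fold changes and p-values) was not used.

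Reads were recovered by scaling each library so that its values became whole (100% of 73342 values within 0.001 of a whole number), which returned library totals of 1535941 to 2118264 reads. For 108 genes with fewer than 50 reads, lengths came from the BDGP6 annotation. Differences were fitted with limma 3.58.1 in R 4.3.3 (lmFit, then eBayes with a mean-variance trend), using log2(RPKM + 1) of 11304 genes whose mean was at least 1 RPKM, with genotype as the factor over all 6 libraries, and p-values were adjusted by the Benjamini-Hochberg method over all genes tested. Fold changes on this scale understate those of low genes. Calls needed an adjusted p below 0.01 and a log2 difference above 1 in size. Intervals of read ratios and shares are exact at 95% and, like the floor of 3 reads, cover counting error only. With 2 libraries against 2, an exact permutation test of a single value cannot go below p = 0.333, and none is given.

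The members and gene lists were chosen with earlier results of these data known. Besides the Turandot genes, the genes named are those of the lists with an adjusted p below 0.05, fixed members of the JAK/STAT and Mekk1 pathway, the 5 genes most like TotA and direct neighbours. vir-1, Tep1, Tep2, Dro, Drsl5 and the genes like TotB were chosen after their values were seen. So were the markers Lsp2, apolpp, Apoltp, Fbp1, Fbp2, bmm, Nplp2, NimC1 and Pxn. All 104 list genes were found in the table, and lists are described by counts and medians without a set test. Promoter and protein sequences are not used here. Alternatives were a pseudocount of 0.1, no filter, a mean of at least 5 RPKM, quantile normalization, centring on the library median, a fit on the compared genotypes alone, a replicate block, voom weights on recovered reads, eBayes with no trend, a threshold of 0.05 on the adjusted p alone and leaving out each library. Once the data were known, a block with swapped numbers of double H3.3 K27R was added.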

Additional observations from a re-analysis of the deposited data

Results flagged for a closer look

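TotB differed between the mutants in the opposite direction from TotA. Relative to wild type, its log2 difference was -0.46 in double H3.3 K27R males and 1.11 in H3.3B K27R males. Both double H3.3 K27R libraries were below both wild type libraries, as for 22.2% of all genes. Both H3.3B K27R libraries were above them, as for 19.6% of all genes. The difference between the mutants was -1.5735 on the log2 scale (SE 0.26), and it was not tested because double H3.3 K27R libraries entered the choice of the genes. The wild type libraries differed from each other by 0.83 on the log2 scale, and the difference from wild type in double H3.3 K27R males was -0.04 without wild type replicate 2.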

How the results depend on the processing

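The log2 difference of TotA between double H3.3 K27R and wild type males lay between 2.83 and 3.19 when each library was left out in turn and between 3.01 and 3.12 under the other alternatives. For TotB in H3.3B K27R against wild type males it lay between 0.70 and 1.53 when libraries were left out and between 1.08 and 1.183 otherwise, and no alternative brought its adjusted p below 0.05. TotM in H3.3B K27R against wild type males turned to -0.0708 without wild type replicate 2, and lay between -0.0708 and 1.0257 when libraries were left out. In double H3.3 K27R against H3.3B K27R males, the difference of TotM near 0 turned to -0.91 with a pseudocount of 0.1 and to -0.09 with voom weights, and was -1.03 without double H3.3 K27R replicate 2 and 1.16 without replicate 1.

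The counts of genes called moved more. In double H3.3 K27R against wild type males 15 genes were called, and 4 with only the 2 genotypes compared, 53 with voom weights, 4 without a trend, 94 at an adjusted p below 0.05 alone and 1 to 5 when a library was left out. In H3.3B K27R against wild type males the count was 1, and 7 with voom weights, 7 at an adjusted p below 0.05 alone and 0 to 1 when a library was left out. In double H3.3 K27R against H3.3B K27R males it was 7, and 4 without a filter, 2 with only the 2 genotypes, 40 with voom weights, 2 without a trend, 35 at an adjusted p below 0.05 alone and 2 whichever library was left out. Mtk in double H3.3 K27R against wild type males had an adjusted p of 0.0168 with voom weights and up to 0.131 when a library was left out, while Drs passed the thresholds with voom weights (adjusted p = 0.00456), as did Hsp23 (0.00410). Drs and Hsp23 were above 0.05 with only the 2 genotypes (0.104 and 0.115), the replicate block (0.114 each) and no trend (0.138 and 0.152). In double H3.3 K27R against H3.3B K27R males, Mtk and Drs were above 0.05 with only the 2 genotypes (0.109 and 0.107), the block (0.132 and 0.0965) and no trend (0.115 and 0.102), and Mtk without a filter (0.0507). The causes were not tested.

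Replicate numbers are not said to pair the libraries, and the correlation of deviations between libraries of the same number was 0.00931 (double H3.3 K27R and H3.3B K27R), -0.209 (double H3.3 K27R and wild type) and 0.0165 (H3.3B K27R and wild type). With a replicate block, 3, 1 and 2 genes were called in double H3.3 K27R against wild type, H3.3B K27R against wild type and double H3.3 K27R against H3.3B K27R males, and the counts were 3, 1 and 2 with the numbers of double H3.3 K27R swapped. The adjusted p of TotB in H3.3B K27R against wild type males was 0.383 with the block.

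Depth limits the low members: TotC, TotF, TotM, TotX and TotZ had at most 7 reads in any library.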
